A study of Homo sapiens with 2 samples.

Results

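Oxidative phosphorylation passes electrons from NADH and succinate through complexes I to IV of the inner mitochondrial membrane and uses the proton gradient they build to drive the ATP synthase, complex V. Most subunits of these complexes are encoded in the nucleus and imported into the mitochondrion, while a small set of core subunits is encoded by mitochondrial DNA. In many nuclear promoters of this system, sites for the factors NRF1, GABPA and YY1 are known, and coactivators of the PGC-1 family act through them.

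Sequencing was used to profile RNA of BT549, an established line from a human breast carcinoma that grows with a mesenchymal phenotype and lacks the hormone receptors for oestrogen and progesterone. Cells that overexpressed SNHG15, a non-coding RNA gene with a small nucleolar RNA in an intron, were set against cells with the control vector pcIP2, both grown in DMEM with fetal bovine serum. Each group held 1 library, so the differences below could not be checked against replicates, no p-values are given, and all 95% intervals cover counting error only. Whether either line was 1 clone or a pool of cells is not stated by the labels, and differences between the lines and differences due to SNHG15 cannot be told apart.

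The genes described are the nuclear genes of oxidative phosphorylation, taken by name from the table of all genes: the NDUFA, NDUFB, NDUFC, NDUFS and NDUFV genes, the UQCR, COX4 to COX8 and ATP5 genes, the 4 SDH genes, CYC1 and CYCS. Of 112 rows that matched these names, 5 readthrough, antisense or divergent transcripts, named with a hyphen, and 14 pseudogenes were left out, which left 93 genes of 19029. All 93 were protein-coding in GENCODE 29. The names also take in genes that are no subunits: 8 assembly factors of complex I, the ATP synthase inhibitor ATP5IF1 and COX7A2L, which joins complexes into supercomplexes. COX6B2, a testis form of a complex IV subunit, had 4 counts with SNHG15 and 5 with the vector and was under the minimum mean of 1 CPM, that is, of counts scaled to a common library size. The other 92 genes were compared.

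The SNHG15 library held 16570496 counts and the vector library 20799017. SNHG15 (ENSG00000232956, hg38 chromosome 7 at 44983023 to 44986961) was at 1997 CPM with SNHG15 and 23.3 CPM with the vector. Of the mesenchymal markers, vimentin (VIM) was at 1998 and 1993 CPM, FN1 at 645 and 1163, SPARC at 910 and 511, CD44 at 520 and 445, and ZEB1 at 3.19 and 5.41 CPM. The epithelial markers CDH1 (12 and 11 counts) and CLDN7 (2 and 40 counts) were low in both.

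As a group the oxidative phosphorylation genes were slightly lower in the SNHG15 library, with few large differences. Their summed level was 12536 CPM there and 14991 CPM in the vector library, a ratio of 0.836 (0.832 to 0.841), beside 0.922 for the sum over all genes compared. They took 1.31% of all counts (exact 95% interval 1.30% to 1.31%) in the SNHG15 library and 1.44% (1.43% to 1.44%) in the vector library. The median log2 ratio of SNHG15 over vector was −0.21, with the middle 50% of genes between −0.40 and 0.08, and 67 of 92 genes lay below 0. The median over all 12934 genes compared was 0.02, and over the 5937 genes that averaged 20 CPM or more it was −0.07. In bulk RNA of a cell line, less RNA of a gene per cell and fewer cells that express it cannot be told apart.

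A gene was called higher or lower where the 95% interval of its ratio excluded 1 and the ratio reached 1.5-fold. By this rule 1 of the 92 genes was higher, NDUFS4, beside 13.3% of all genes compared. Lower were 12 of 92 genes (13.0%), beside 12.2% of all genes, so the share called lower was close to that of the transcriptome. The lower genes were NDUFV3, NDUFV1, NDUFB10, NDUFB2, NDUFS8 and NDUFS7 of complex I, CYC1 of complex III, COX7A1, COX8A and NDUFA4 of complex IV, and ATP5F1D and ATP5ME of complex V. With library totals in place of TMM scaling, 3 genes were higher and 7 lower, so that the higher genes were 30.0% of those called, against 7.69% with TMM. Over all genes the same change of scaling moved the called shares to 18.4% higher and 8.90% lower, and the higher share of those called to 67.4%, against 52.3% with TMM. NDUFB10, NDUFB2, NDUFS8, NDUFS7 and ATP5ME were then no longer lower, and NDUFA12 and NDUFA4L2 were called higher besides NDUFS4. NDUFA4L2 passed the minimum mean of 1 CPM through the SNHG15 library alone, so its call, and the 30.0% that includes it, support nothing. Without regard to size, the interval lay wholly below 1 for 54 genes (58.7%), beside 31.3% of all genes, and wholly above 1 for 18 (19.6%), beside 30.7% of all genes, while 20 intervals included 1. These genes are abundant, and abundant genes have narrow intervals. Among genes that averaged 20 CPM or more, 51 of 81 oxidative phosphorylation genes (63.0%) had an interval below 1, beside 46.2% of all such genes, and 17 (21.0%) one above 1, beside 32.5%. At that level, 10 were called lower (12.3%, beside 11.7% of all such genes) and 0 higher (beside 7.29%).

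**Figure D1:**
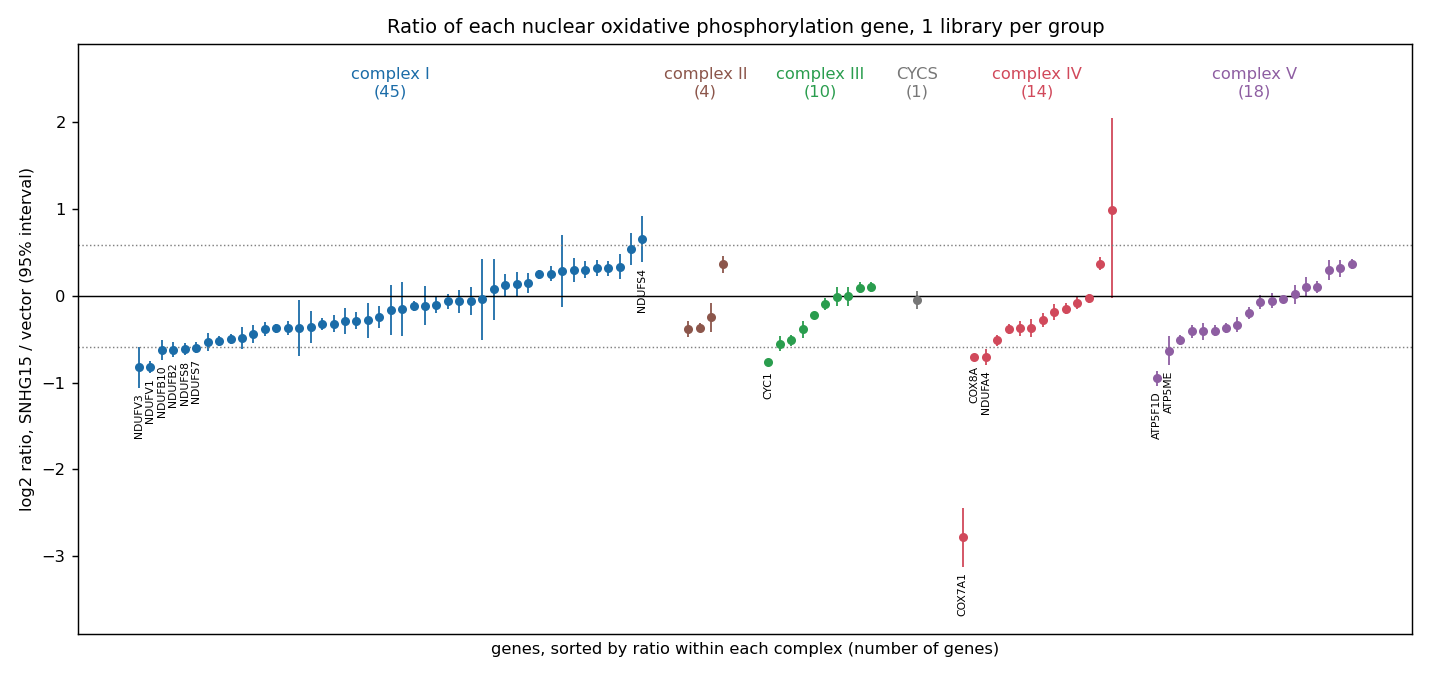
Log2 ratio of SNHG15 over vector for each of the 92 genes compared (vertical axis, with its 95% counting interval), sorted within complexes I to V and coloured by complex; dotted lines mark 1.5-fold in either direction. Most points lie between the dotted lines and below 0, COX7A1 of complex IV stands far below the others, and the 13 genes called are named.

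The promoters of the genes were examined for short strings that the known regulators bind. RefSeq (GRCh38.p14) gave a promoter of 300 bases, mostly before the start site, for 72 of the 92 genes, and each string was searched on both strands. Among the 20 genes without a promoter were COX7A1, CYC1, ATP5F1D and NDUFA4, all called lower. The NRF1 string GCGCATGC was in 17 of 72 promoters (23.6%), beside 3.68% of the promoters of all 27305 genes. Those 27305 outnumber the 12934 genes compared, so they take in genes not compared here. No share in this paragraph is matched for expression. The ETS string CCGGAAG, which GABPA and other ETS factors bind, was in 22 (30.6%), beside 12.2%. The YY1 string AAGATGGC was in 13 (18.1%), beside 3.52%. The strings CCAAT (37.5%, beside 39.7%), GGGCGGG (33.3%, beside 36.7%) and TATAAA (8.33%, beside 14.0%) were near or under the share of all promoters. The 6 strings were chosen with results of these data known, and a match is a run of letters, not a measured binding site. The promoters of 4 genes with a match and a pair without one among the printed bases are shown from 100 bases before to 20 bases after the start, in the direction of transcription, with the strings or their reverse complements in capitals. NDUFS7 (chr19:1383807-1383926, plus strand), ATP5ME (chr4:674257-674376, minus strand) and COX8A (chr11:63974520-63974639, plus strand) were called lower. SDHB (chr1:17054013-17054132, minus strand), of complex II, was below 1 without a call and holds the YY1 string just after its start. NDUFV1 (chr11:67606836-67606955, plus strand) was lower with none of the 3 strings among these bases, and NDUFS4 (chr5:53560539-53560658, plus strand) was the only gene called higher.
NDUFS7, NRF1 string: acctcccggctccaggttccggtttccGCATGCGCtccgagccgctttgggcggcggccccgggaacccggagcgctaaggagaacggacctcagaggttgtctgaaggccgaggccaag
ATP5ME, NRF1 and ETS strings: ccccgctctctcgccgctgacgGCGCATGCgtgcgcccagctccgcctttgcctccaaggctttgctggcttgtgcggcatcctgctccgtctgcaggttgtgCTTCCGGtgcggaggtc
COX8A, ETS string: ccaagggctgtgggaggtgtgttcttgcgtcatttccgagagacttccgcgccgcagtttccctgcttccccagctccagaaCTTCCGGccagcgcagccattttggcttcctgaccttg
SDHB, YY1 string: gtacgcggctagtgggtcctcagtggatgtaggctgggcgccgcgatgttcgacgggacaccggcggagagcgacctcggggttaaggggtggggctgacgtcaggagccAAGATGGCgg
NDUFV1: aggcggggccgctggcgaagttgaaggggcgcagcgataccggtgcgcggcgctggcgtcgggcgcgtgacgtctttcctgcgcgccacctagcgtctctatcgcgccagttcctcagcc
NDUFS4: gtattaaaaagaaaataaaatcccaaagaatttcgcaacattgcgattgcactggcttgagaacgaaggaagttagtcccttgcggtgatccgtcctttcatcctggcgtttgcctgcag

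The median log2 ratio was lower with than without the NRF1, ETS, YY1 or GGGCGGG string, and higher with than without CCAAT or TATAAA. The median log2 ratio was −0.25 for the 17 genes with the NRF1 string and −0.19 for the others with a promoter. It was −0.27 with and −0.17 without the ETS string, and −0.29 with and −0.16 without the YY1 string. NDUFS4 and NDUFS7, called in opposite directions, both hold the YY1 string in the full 300 bases. The messages of the factors themselves were at 20.2 CPM with SNHG15 and 17.1 CPM with the vector for NRF1, at 4.35 and 3.75 CPM for GABPA, and at 62.9 and 37.6 CPM for YY1. YY1 was 1.67-fold higher (1.52 to 1.84) in the SNHG15 library, and the interval of GABPA included 1. ESRRA, a nuclear receptor that drives respiratory genes with PGC-1 coactivators, was at 42.1 and 94.0 CPM and 2.23-fold lower (2.05 to 2.44). PPARGC1A, the coactivator PGC-1α, had 0 counts with SNHG15 and 2 with the vector and was not compared. Of the 11 regulators compared, 1 was higher and 1 lower, beside 13.3% and 12.2% of all genes, with a median log2 ratio of 0.18. Whether any of these factors had a part in the ratios of the subunit genes was not tested.

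Complex I, the NADH dehydrogenase, had 45 genes compared, of which 1 was higher and 6 lower. For this and the complexes below, the shares over all genes compared were 13.3% higher and 12.2% lower. The summed level of the 45 genes was 4032 CPM with SNHG15 and 4796 CPM with the vector, a ratio of 0.841 (0.832 to 0.849). The median log2 ratio of complex I was −0.16. Its 7 nuclear core subunits carry the flavin and the iron-sulfur clusters that pass electrons to coenzyme Q, and 3 of them were lower. NDUFV1 (ENSG00000167792, chromosome 11 at 67606852 to 67612535), which binds the flavin and oxidises NADH, was at 146 CPM with SNHG15 and 257 CPM with the vector, 1.76-fold lower (1.68 to 1.85). NDUFS8 (ENSG00000110717, chromosome 11 at 68030617 to 68036644) was at 155 and 238 CPM, 1.53-fold lower (1.46 to 1.61). NDUFS7 (ENSG00000115286, chromosome 19 at 1383527 to 1395589), which holds the last cluster before coenzyme Q, was at 181 and 273 CPM, 1.51-fold lower (1.45 to 1.58). Among the core subunits that were not called, NDUFV2 had a ratio of 0.957 (0.874 to 1.05) and NDUFS3 one of 0.929 (0.870 to 0.992). The 3 lower core genes were also the 3 with the highest transcript GC content among the core subunits, at 60.4% for NDUFV1, 62.7% for NDUFS8 and 66.1% for NDUFS7. With the GC trend of all genes removed, NDUFV1 was still called, at a ratio of 0.658, while NDUFS8 (0.785) and NDUFS7 (0.835) were not.

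The 30 accessory subunits of complex I, which surround and stabilise the core, had a median log2 ratio of −0.26, with 1 higher and 3 lower, 9 intervals above 1 and 17 below. NDUFS4 (ENSG00000164258, chromosome 5 at 53560633 to 53683340), needed for a stable NADH-oxidising module and mutated in Leigh syndrome, had 276 counts with SNHG15 and 203 with the vector. It was at 16.0 and 10.2 CPM, 1.57-fold higher (1.31 to 1.90), and no longer called with the GC trend removed (1.38). NDUFA12, another accessory subunit, was next at 33.0 and 22.7 CPM, a ratio of 1.45 (1.28 to 1.65). NDUFV3 (ENSG00000160194, chromosome 21 at 42879644 to 42913304), an accessory subunit of the same module, was at 13.4 and 23.7 CPM, 1.77-fold lower (1.51 to 2.08). So 2 accessory genes of the NADH-oxidising arm, NDUFS4 and NDUFV3, were called in opposite directions. NDUFB10 (ENSG00000140990, chromosome 16 at 1959508 to 1961975), of the membrane arm, was at 54.0 and 83.3 CPM, 1.54-fold lower (1.42 to 1.67). NDUFB2 (ENSG00000090266, chromosome 7 at 140690777 to 140722790) was at 92.9 and 143 CPM, 1.54-fold lower (1.44 to 1.63). It overlaps ADCK2 on the same strand, so its counts may include reads of that gene. The 13 NDUFA genes of complex I had a median log2 ratio of −0.29 and the 11 NDUFB genes one of −0.12. The 8 assembly factors, NDUFAF1 to NDUFAF8, help to build the complex without staying in it, and none was called. Their median log2 ratio was −0.13, and 5 of the 8 intervals included 1.

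Complex II oxidises succinate and is the only complex with no subunit from mitochondrial DNA. None of its 4 genes was called. The iron-sulfur subunit SDHB was at 96.5 CPM with SNHG15 and 126 CPM with the vector, a ratio of 0.766 (0.720 to 0.815). The flavoprotein SDHA was at 273 and 352 CPM, a ratio of 0.775 (0.747 to 0.805). Of the membrane anchors, SDHD was at 30.4 and 36.2 CPM (0.841, 0.750 to 0.942), whereas SDHC was at 101 and 78.5 CPM, a ratio of 1.29 (1.20 to 1.38). Thus 3 genes lay below 1 and SDHC above it. With window centring, which subtracts the median ratio of neighbouring genes after the GC trend, SDHC was at 0.945 and SDHD at 0.996. SDHB was then at 0.777 and SDHA at 0.826.

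Complex III passes electrons from coenzyme Q to cytochrome c. Of its 10 genes, CYC1 was lower and none higher, 6 intervals lay below 1 and 2 above. CYC1 (ENSG00000179091, chromosome 8 at 144095027 to 144097525), the haem-bearing cytochrome c1, had 8047 counts with SNHG15 and 15806 with the vector. It was at 466 and 791 CPM, 1.70-fold lower (1.65 to 1.74), with a GC content of 62.5%, and was not called with the GC trend removed (0.707). UQCRB was next at 103 and 151 CPM, a ratio of 0.683 (0.643 to 0.724), and the core protein UQCRC1 was at 622 and 725 CPM (0.859, 0.837 to 0.880). The summed ratio of the complex was 0.799 (0.789 to 0.810), and 0.882 (0.869 to 0.895) without CYC1. The Rieske iron-sulfur protein UQCRFS1 had a ratio of 0.937 (0.893 to 0.983). UQCRH, the hinge protein that binds cytochrome c1, had a ratio of 1.07 (1.03 to 1.12) and its near copy UQCRHL one of 0.994 (0.922 to 1.07). Pooled with UQCRHL and a pseudogene, which may share its reads, UQCRH was at 1.05 (1.01 to 1.09). CYCS, cytochrome c itself, was at 78.7 and 81.7 CPM, a ratio of 0.964 (0.896 to 1.04).

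Complex IV, cytochrome c oxidase, had the lowest median of the 5 complexes at −0.32, close to the −0.31 of complex II. With the GC trend removed these medians were −0.350 and −0.346. In complex IV 3 of 14 genes were lower and none higher, and 11 intervals lay below 1 against 1 above. COX7A1 (ENSG00000161281, chromosome 19 at 36150922 to 36152869), the form of subunit 7a known from heart and skeletal muscle, differed most among the 92 genes. It had 83 counts with SNHG15 and 659 with the vector, at 4.81 and 33.0 CPM, 6.86-fold lower (5.45 to 8.72). Its ratio was between 0.142 and 0.183 under the other scalings, the GC correction and the window centring. The widely expressed form COX7A2 was at 218 and 242 CPM, a ratio of 0.902 (0.864 to 0.942). COX7A1 thus gave 2.16% (exact 95% interval 1.72% to 2.67%) of the counts of both forms in the SNHG15 library and 12.0% (11.2% to 12.9%) in the vector library. In the authors' deposited table it was the only one of these genes marked as changed, with a log2 ratio of −2.66 and an adjusted p of 1.22e-23. The authors' deposited table gave an adjusted p under 0.05 for 12 of these genes, COX7A1 included, all computed without replicates.

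COX8A (ENSG00000176340, chromosome 11 at 63974607 to 63976543), a small subunit of complex IV, was the most abundant of the 92 genes per length. It was at 581 CPM with SNHG15 and 948 CPM with the vector, 1.63-fold lower (1.59 to 1.67), and not called with the GC trend removed (0.690). NDUFA4 (ENSG00000189043, chromosome 7 at 10931951 to 10940256), named for complex I but now known as a subunit of complex IV, was at 90.4 and 147 CPM, 1.63-fold lower (1.53 to 1.73). Its transcript GC content was 39.5%, and its ratio with the GC trend removed was 0.525. NDUFA4L2, its paralog known to be induced by hypoxia, had 24 counts against 14, a ratio of 1.98 (0.986 to 4.15), so a difference was not detectable at this depth. It was called higher with library totals (2.15), after the GC correction (2.39) and after window centring (2.08). It was at 1.39 CPM with SNHG15 and 0.701 CPM with the vector, so it passed the minimum mean of 1 CPM through the SNHG15 library alone, and these calls support nothing. COX7C was the highest of the better-measured genes at 189 and 147 CPM, a ratio of 1.29 (1.23 to 1.36). COX6A1 had a ratio of 0.979 (0.945 to 1.01), COX4I1 of 0.943 (0.901 to 0.987), COX7B of 0.877 (0.822 to 0.936) and COX6B1 of 0.768 (0.736 to 0.800). The summed ratio of the complex was 0.778 (0.769 to 0.788), and 0.852 (0.840 to 0.865) without COX8A. The supercomplex factor COX7A2L had a ratio of 0.770 (0.725 to 0.818).

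Complex V, the ATP synthase, differed least of the complexes in its sum, at 3281 CPM with SNHG15 and 3630 CPM with the vector, a ratio of 0.904 (0.894 to 0.914). The median over its 18 genes was −0.13, with 2 lower and none higher. After window centring this median was −0.30, beside −0.19 for complex I, −0.18 for II, −0.24 for III and −0.34 for IV. Summed ratios within complex V were 0.964 for the F1 head and central stalk, 0.916 for the peripheral stalk and 0.840 for the membrane part. Within its F1 head and central stalk the genes went in both directions. The α and β subunits form the catalytic head. ATP5F1A, for the α subunit, was at 332 and 257 CPM, a ratio of 1.29 (1.24 to 1.34). ATP5F1B, for the β subunit, was at 926 and 954 CPM, a ratio of 0.971 (0.951 to 0.992). ATP5F1C, for the γ subunit of the rotor, had a ratio of 1.25 (1.17 to 1.33). ATP5F1D (ENSG00000099624, chromosome 19 at 1241746 to 1244826), for the δ subunit of the same rotor, was at 88.2 and 170 CPM, 1.93-fold lower (1.82 to 2.05). It had the highest GC content of the 92 genes, 68.1%, and a ratio of 0.673 with the GC trend removed, just short of a call. ATP5F1E, for the ε subunit, had a ratio of 0.753 (0.714 to 0.794).

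The membrane part of complex V holds the proton channel, and 1 of its 8 genes was lower. ATP5ME (ENSG00000169020, chromosome 4 at 672436 to 674338), for subunit e, which helps to join 2 synthases into a dimer, was at 26.8 and 41.6 CPM, 1.55-fold lower (1.38 to 1.74). ATP5MF, for subunit f, was at 191 and 272 CPM, 1.42-fold lower (1.36 to 1.49) and not called. Counts of the readthrough gene ATP5MF-PTCD1 and of a pseudogene were 26 with SNHG15 and 1131 with the vector, and pooled with them ATP5MF was 1.71-fold lower (1.64 to 1.78). The genes ATP5MC1, ATP5MC2 and ATP5MC3 encode the same mature ring subunit c with different targeting sequences. ATP5MC1 gave 28.1% of their summed counts with SNHG15 and 28.3% with the vector, ATP5MC2 35.2% and 28.9%, and ATP5MC3 36.7% and 42.7%. The exact intervals of the ATP5MC2 share, 34.3% to 36.2% and 28.1% to 29.7%, did not overlap, and those of ATP5MC1 did. The 4 genes of the peripheral stalk had a median log2 ratio of −0.07, and 3 of their 4 intervals included 1. The inhibitor ATP5IF1 was at 108 and 136 CPM, a ratio of 0.795 (0.749 to 0.843).

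**Figure D2:**
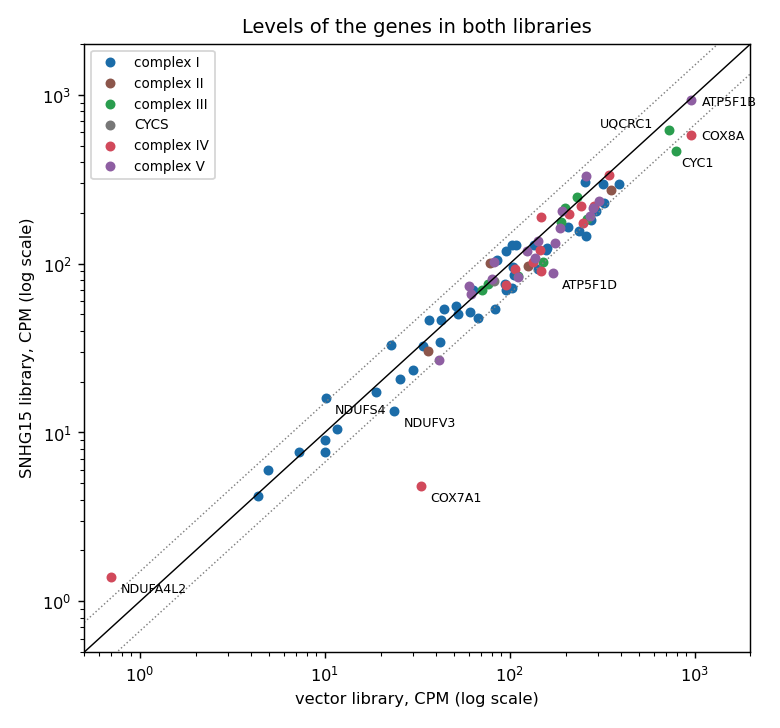
Level of each of the 92 genes in the vector library (horizontal axis, CPM, log scale) and in the SNHG15 library (vertical axis, CPM, log scale), 1 point per gene, coloured by complex; the solid line marks equal levels and the dotted lines 1.5-fold. Levels run from 0.701 CPM for NDUFA4L2 to 954 CPM for ATP5F1B in the vector library, and COX7A1 is the only gene far outside the dotted lines.

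Levels can be compared between genes only per length, here as CPM per kilobase of exonic sequence in GENCODE 29. COX8A was highest, at 1146 with SNHG15 and 1870 with the vector. In the vector library NDUFB7 (610), NDUFS5 (466), ATP5F1B (411) and CYC1 (401) came next. In the SNHG15 library the order was NDUFS5 (553), NDUFB7 (431), ATP5F1B (399) and COX6A1 (251), with CYC1 at 236. NDUFB7 and NDUFS5, accessory subunits of complex I, changed places, as NDUFB7 had a ratio of 0.707 (0.679 to 0.735) and NDUFS5 one of 1.19 (1.14 to 1.23). At the low end, the assembly factor NDUFAF5 was at 0.586 and 0.604 CPM per kilobase.

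The ratio followed transcript GC content, in these genes as over all genes. Spearman's rho across genes was −0.40 over the 92 genes and −0.33 over 12895 genes compared, as a description, since genes of 1 pair of libraries are not independent. The 25 genes with a GC content under 45% had a median log2 ratio of −0.06, beside 0.22 for all genes of that band. The 12 genes at 60% or more had a median of −0.56, beside −0.29, and 6 of the 12 lower genes were among them: NDUFV1, NDUFS8, NDUFS7, CYC1, COX7A1 and ATP5F1D. In each of the 5 bands the median of the oxidative phosphorylation genes lay below that of all genes. With the GC trend of all genes removed, their median was −0.26, and 5 of the 12 lower calls remained: COX7A1, NDUFA4, NDUFB2, NDUFV1 and NDUFV3. ATP5F1E (0.640) and UQCRB (0.578) were then called in addition. What part GC content had in the ratios beyond this correction was not tested.

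**Figure D3:**
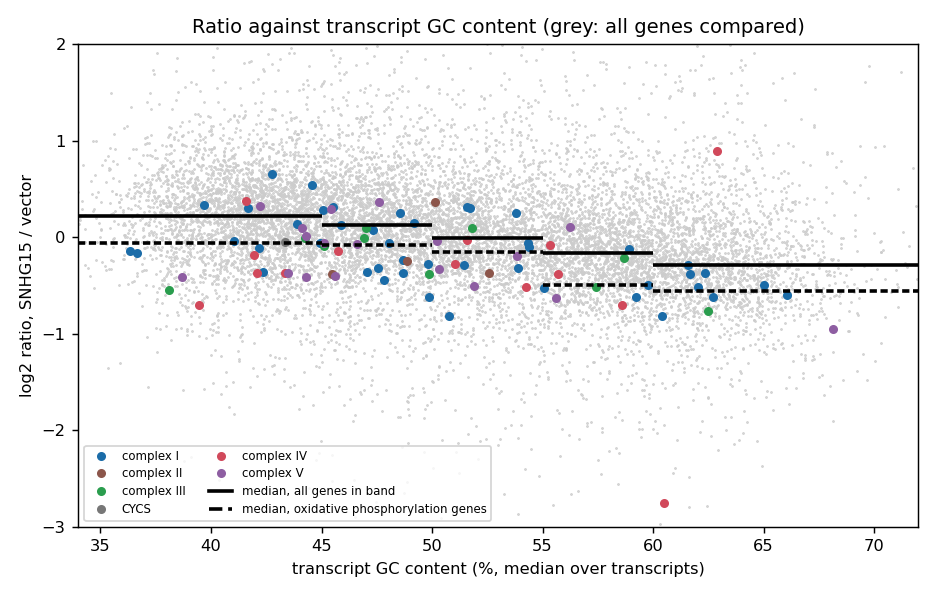
Log2 ratio (vertical axis) against transcript GC content in percent (horizontal axis) for all genes compared (grey; points beyond the axes are not drawn) and the oxidative phosphorylation genes (coloured by complex), with medians per band of all genes (solid) and of the oxidative phosphorylation genes (dashed). Both medians go down with GC content, and the dashed line lies below the solid line in all 5 bands, from −0.06 against 0.22 to −0.56 against −0.29.

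The ratio varied between chromosomes, in part with that of the other genes there. All 11 genes of chromosome 19 had intervals below 1, with a median log2 ratio of −0.51 and 3 called lower (NDUFS7, COX7A1 and ATP5F1D). Of all 957 genes of that chromosome, 479 had intervals below 1 and 131 were called lower, with a median of −0.21. All 7 genes of chromosome 11 had intervals below 1 too, with a median of −0.37 and 3 lower (NDUFV1, NDUFS8 and COX8A). Of all 719 genes there, 357 had intervals below 1 and 157 were called lower, with a median of −0.23. The 5 genes of chromosome 8 had a median of −0.37, beside −0.06, and the 5 of chromosome 7 one of −0.51, beside −0.27. The 6 genes of chromosome 12 had a median of 0.21, beside 0.19, and the 7 of chromosome 5 one of 0.09, beside 0.33. Chromosome 5 also held NDUFS4. The 8 genes of chromosome 1 had a median of 0.06, beside 0.14. Other chromosomes did not follow their other genes. The 7 genes of chromosome 2 had a median of −0.36, beside 0.0045 for the other genes there. The 2 of chromosome 4 had one of −0.46, beside 0.16, and the 2 of chromosome 6 one of −0.15, beside 0.08. With the median of 40 neighbouring genes subtracted after the GC trend, the median over the 92 genes was −0.22, and 3 of the 12 lower calls remained: COX7A1, NDUFA4 and NDUFV3. The assembly factor NDUFAF2 (0.643) was then called lower in addition. Intervals then lay below 1 for 66 genes (71.7%), beside 28.1% of all genes. That comparison is not matched for abundance, and abundant genes such as these have narrow intervals. Differences in DNA copy number between the lines were not measured.

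**Figure D4:**
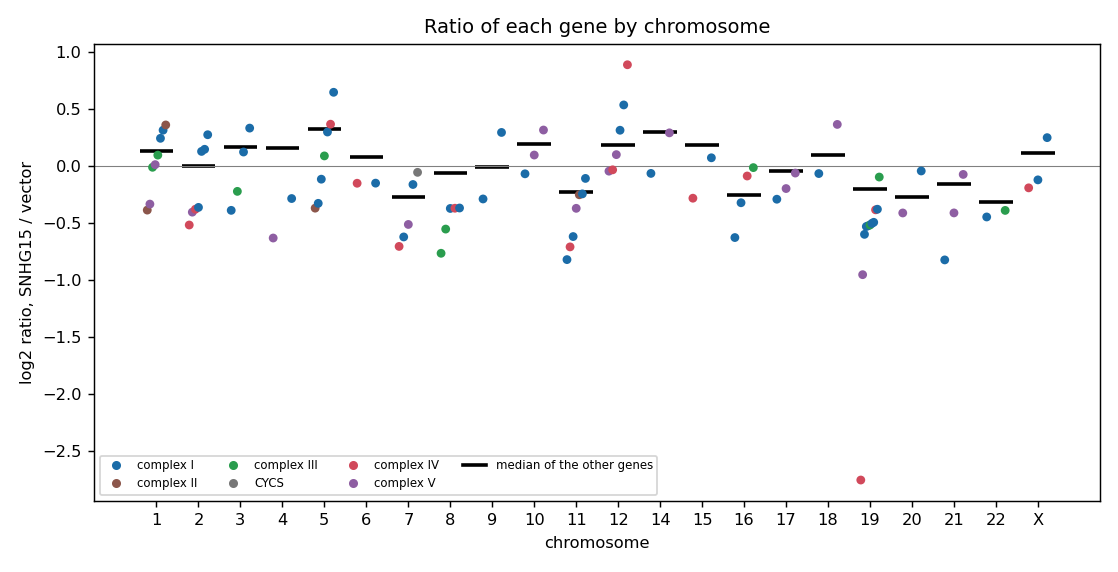
Log2 ratio of each gene (vertical axis) by chromosome (horizontal axis), coloured by complex; black bars give the median of the other genes of each chromosome. All points of chromosomes 4, 6, 7, 8, 11, 16, 17, 19, 20, 21 and 22 lie below 0, and the 2 highest points are on chromosomes 5 and 12.

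In their sums, the subunits encoded by mitochondrial DNA lay lower than their nuclear partners in each complex that has both. They took 3.51% of the counts with SNHG15 and 4.67% with the vector. Their summed ratio was 0.665 (0.662 to 0.669) for the 7 of complex I, 0.655 (0.648 to 0.663) for the single one of complex III, 0.726 (0.723 to 0.729) for the 3 of complex IV and 0.657 (0.647 to 0.667) for the 2 of complex V. The nuclear sums stood at 0.841, 0.799, 0.778 and 0.904. All 13 mitochondrial genes had intervals below 1, beside 31.3% of all genes compared, and 7 were called lower, beside 12.2%. Among all genes that averaged 20 CPM or more, these shares were 46.2% and 11.7%. The mitochondrial genes were at 344 CPM or more with the vector, and abundant genes have narrow intervals. Among those called were MT-ND3 of complex I, 2.25-fold lower (2.19 to 2.31), and MT-CYB of complex III, 1.53-fold (1.51 to 1.54). MT-CO2 of complex IV, 1.54-fold (1.52 to 1.55), and MT-ATP6 of complex V, 1.57-fold (1.53 to 1.62), were called too.

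Genes that build the complexes but lie outside the names above were described in the same way. Of 11 further assembly genes of complex I, 3 were lower, where 12.2% of all genes were, and none higher, with a median log2 ratio of −0.25: ECSIT (1.83-fold, 1.65 to 2.02), DMAC2 (1.78-fold, 1.64 to 1.94) and FOXRED1 (1.58-fold, 1.48 to 1.69). ACAD9, in the same assembly complex as ECSIT, had a ratio of 1.21 (1.14 to 1.28). Of 6 for complex III, UQCC3 was 1.61-fold lower (1.46 to 1.77). Of 26 for complex IV, the copper carriers SCO2 (1.66-fold, 1.56 to 1.77) and COX19 (1.70-fold, 1.36 to 2.13) were lower and COX20 was 1.73-fold higher (1.39 to 2.17), with a median of −0.13. Over all genes, 12.2% were lower and 13.3% higher. None of the 4 genes for complex II or the 5 for complex V was called, with ratios from 0.677 (FMC1) to 1.42 (ATPAF1) for complex V. Carriers that bring ADP and phosphate to the synthase were listed with the outer membrane channels. Of these 7 genes, 2 were higher and none lower, beside 13.3% and 12.2% of all genes compared. Their median was 0.25, beside 0.02 for all genes compared. The adenine nucleotide carrier SLC25A5 was at 1557 CPM with SNHG15 and 986 CPM with the vector, 1.58-fold higher (1.55 to 1.61), and SLC25A4 at 35.9 and 20.9 CPM, 1.72-fold higher (1.52 to 1.95). The phosphate carrier SLC25A3 had a ratio of 1.12 (1.08 to 1.15) and the adenine nucleotide carrier SLC25A6 one of 1.04 (1.02 to 1.06), and neither was called.

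**Figure D5:**
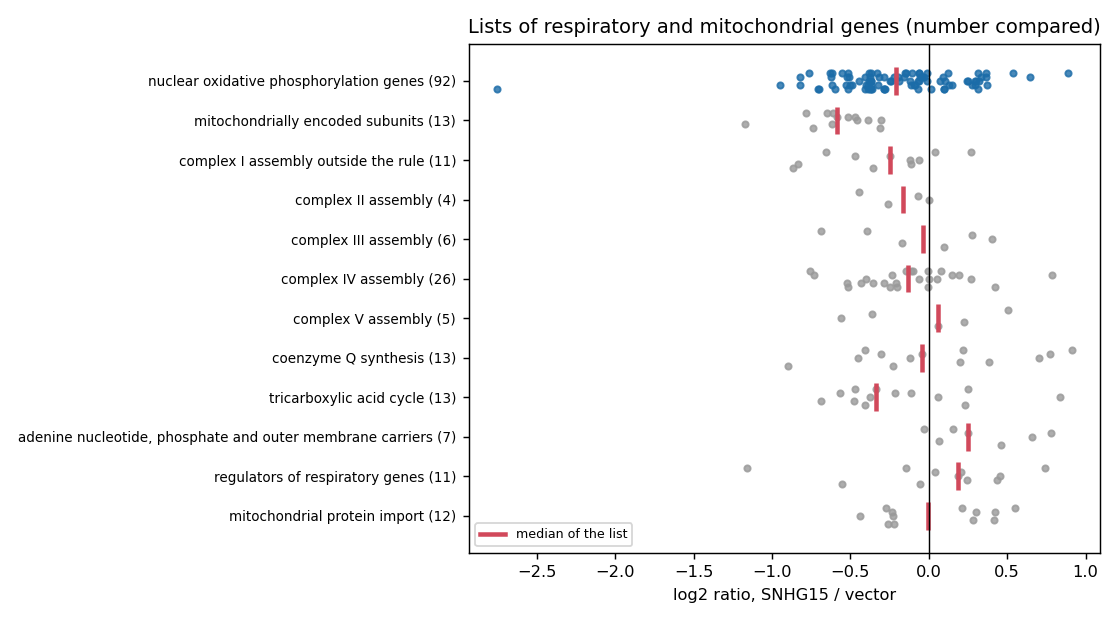
Log2 ratio of SNHG15 over vector (horizontal axis) for the 92 oxidative phosphorylation genes (blue) and for genes of 11 related lists (grey), 1 point per gene, with the median of each list as a red bar and the number of genes compared in brackets. The mitochondrially encoded subunits have the lowest median (−0.59) and the carriers the highest (0.25).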

How the data were processed

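Per the file headers, the authors deposited whole-number counts and FPKM values per gene for both libraries, with a log2 ratio, p-values and adjusted p-values of their own. The submitters' processing notes give hg38 as the build. Aligner, counter, annotation release and strandedness were not given in the sources used here. Deposited FPKM values imply gene lengths a median of 1.56 times the exonic length in GENCODE 29, so levels per length were computed from the counts.

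Counts were scaled with TMM factors (1.04 for SNHG15, 0.960 for the vector) of edgeR 4.0.16, run in R 4.3.3. Ratios have exact conditional-binomial (Clopper-Pearson) 95% intervals. Reads are not independent molecules, so the intervals cover counting error only. Log2 ratios used a prior count of 2. GENCODE 29 (GRCh38) gave transcript GC content, whose trend was removed by lowess with a span of 0.5. As alternatives, library totals, size factors of DESeq2 1.42.0, other filters, prior counts and call rules, deposited FPKM with pseudocounts of 1 and 0.1, structural subunits only, random thinning of the vector library and, added after the data were seen, genes without same-strand overlap were tried. The functions were tested on simulated data.

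Of the genes compared, 16 overlap another gene on the same strand and 34 one on the opposite strand, among the called genes NDUFB2, NDUFS7 and ATP5ME, and their values are uncertain. Named genes were SNHG15, all genes called, the most abundant, highest and lowest of each complex, paralog pairs, the SDH genes, CYC1 and CYCS, and the called, highest and lowest of each related list. Others, among them NDUFS3, NDUFV2, UQCRB, UQCRFS1, ATP5F1C, ATP5F1E and ATP5IF1, were named after their values were seen to describe a structural group. The members and lists were chosen with earlier results of these data known.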

Additional observations from a re-analysis of the deposited data

How the results depend on the processing

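The median log2 ratio of the 92 genes stayed below 0 under all alternatives run, between −0.26 with the GC trend removed and −0.09 with library totals or deposited FPKM. The median over all genes was 0.13 with library totals, and the oxidative phosphorylation genes lay 0.22 below it, as they did with TMM. A change of scaling multiplies the ratios of all genes by the same factor. This gap was thus almost fixed in advance and is no check of the result. The counts of called genes moved more. Against 1 higher and 12 lower, there were 3 higher and 7 lower with library totals, and 3 higher and 6 lower with FPKM and a pseudocount of 0.1. Lower genes numbered 5 with FPKM and a pseudocount of 1, 7 after the GC correction and 4 after window centring as well. With the GC trend removed the 1 higher gene was NDUFA4L2 in place of NDUFS4, and NDUFA4L2, which passed the minimum through the SNHG15 library alone, is also among the 3 with library totals. Point ratios alone gave 2 higher genes, and a whole interval past 1.5-fold gave 0 higher and 7 lower. DESeq2 size factors kept all 12 lower calls and added UQCRB. With library totals, intervals lay below 1 for 43 of the 92 genes (46.7%, beside 24.4% of all genes, not matched for abundance). Medians changed sign with library totals for complex III assembly (0.081), coenzyme Q synthesis (0.073) and mitochondrial protein import (0.11). No paired analysis was possible because each group held 1 library.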

Other observations

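Pathways that feed the respiratory chain were described from lists of the same kind. Of 13 genes of the tricarboxylic acid cycle, which makes NADH and succinate for complexes I and II, 8 intervals lay below 1 and 2 above, with a median log2 ratio of −0.34. Over all genes, 31.3% of intervals lay below 1 and 30.7% above. Malate dehydrogenase MDH2 was at 550 CPM with SNHG15 and 886 CPM with the vector, 1.61-fold lower (1.57 to 1.65). SUCLG2, the subunit of succinyl-CoA ligase specific for GTP, was at 9.91 and 5.51 CPM, 1.80-fold higher (1.41 to 2.31). The 13 genes of coenzyme Q synthesis went in both directions, with 3 higher, 1 lower and a median of −0.04. Over all genes, 13.3% were higher and 12.2% lower. COQ10A was 1.89-fold higher (1.65 to 2.17), PDSS1, which makes the side chain, 1.73-fold (1.27 to 2.37) and COQ2, which joins it to the ring, 1.63-fold (1.44 to 1.85), while the kinase-like COQ8B was 1.87-fold lower (1.68 to 2.08). Of 12 genes of mitochondrial protein import, none was called, with 6 intervals above 1 and 6 below, from TIMM50 at 0.739 (0.707 to 0.773) to HSPA9 at 1.47 (1.39 to 1.55).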
